A study of Mus musculus with 24 samples.

Results

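The lncRNA genes 1700027A15Rik, 1700031M16Rik, 1700017J07Rik and Kcnmb4os1 of the mouse testis are described here through 5 of the 60804 transcript probes of a mouse lncRNA microarray. The 5 probes were assigned by the study's supplementary tables to NR_038002 of 1700027A15Rik (ASMM10P017009), uc007xmk.2 (ASMM10P056805) and NR_015496 (ASMM10P009807) of 1700031M16Rik, NR_040326 of 1700017J07Rik (ASMM10P024295) and NR_028107 of Kcnmb4os1 (ASMM10P046044). They were chosen because their signals were high in testis and low in the other tissues of these same arrays, so testis against the other groups is given below as a description and without a test. A further 1700031M16Rik probe, for transcript uc007xml.1, was read beside them. The 24 arrays, 3 per group, held Cy3-labeled RNA of testis, brain, heart, kidney and liver from male ICR mice aged 8 weeks, and of 3 mouse cell lines, namely F9, GC-1 and GC-2. The sample labels name no treatment or genotype for any group. The tissues were whole organs, so that fewer cells of a type and less RNA per cell cannot be told apart. F9 derives from embryonal carcinoma. GC-1 and GC-2 are immortalized, the former resembling spermatogonia about to enter meiosis and the latter spermatocytes. Each line is a single cultured line whose 3 arrays are called biological replicates without a statement that the cultures were separate, so p-values between lines measure only the spread between these arrays.

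Spermatogenesis takes diploid spermatogonia through meiosis in spermatocytes to haploid spermatids, which then replace most of their histones, first with transition proteins and then with protamines. The testis transcribes an unusually large number of long noncoding RNAs, many of them in the later germ cell stages. Of the genes beside the 4 lncRNAs, Tnp1 encodes transition protein 1 of spermatids and Kcnmb4 an accessory beta subunit of the large-conductance calcium-activated potassium channel. Olfr282 and Olfr283 encode odorant receptors and Zfp64 a zinc finger protein. What the 4 lncRNAs themselves do is not taken from any source here.

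1700027A15Rik lies at chr1:73016036-73025508 (GRCm38, RefSeq) on the plus strand. Its first start lies 137 bp from the start of Tnp1 (chr1:73015074-73015899), which is transcribed the other way, and the tables class it as intergenic. RefSeq gives the gene a second start 8550 bp further on, and this is where the transcript assigned to the array probe, NR_038002, begins. Promoter windows of RefSeq (GRCm38.p6), from 250 bases before a start to 50 after, could be matched for 2 of the 4 genes. Those of the 2 starts of 1700027A15Rik are shown because one start faces Tnp1 and the other begins the transcript that the probe was assigned to. Capitals mark matches to 4 motifs searched on both strands (TGACGTCA, TGACATCA, TATAAA, and CCATGG followed by any base and AAC, none of which overlapped another here).
1700027A15Rik first start, chr1:73015786-73016085, plus strand: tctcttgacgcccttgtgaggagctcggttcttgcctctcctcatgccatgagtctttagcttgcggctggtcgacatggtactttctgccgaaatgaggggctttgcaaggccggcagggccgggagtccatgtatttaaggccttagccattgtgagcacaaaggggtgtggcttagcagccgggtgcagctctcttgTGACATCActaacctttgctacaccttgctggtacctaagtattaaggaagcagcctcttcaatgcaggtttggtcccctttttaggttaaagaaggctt
1700027A15Rik second start, chr1:73024336-73024635, plus strand: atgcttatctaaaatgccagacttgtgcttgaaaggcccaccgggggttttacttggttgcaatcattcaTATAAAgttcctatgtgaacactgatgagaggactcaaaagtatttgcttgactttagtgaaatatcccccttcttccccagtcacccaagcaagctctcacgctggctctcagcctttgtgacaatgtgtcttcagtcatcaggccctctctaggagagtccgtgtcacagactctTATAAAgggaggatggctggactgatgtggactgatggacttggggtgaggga

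The first window held TGACATCA at -50 to -43 from the lncRNA start (start base counted as 0). The same letters, read on the other strand, lie at -94 to -87 from the Tnp1 start, since 236 bases are shared by the windows of the neighboring genes. TGACGTCA, the palindromic cAMP response element bound by CREB and CREM factors, was not found in these windows. It occurs in 1.79% of 32851 windows of the same length, and TGACATCA in 3.62%. The second window held TATAAA at -180 to -175 and at -3 to 2, and 13.6% of all windows hold those letters. The study's Tnp1 qRT-PCR forward primer, ggcagaaagtaccatgtcg, matched the minus strand of the first window, at 23 to 41 after the Tnp1 start and thus outside the lncRNA. The RT-PCR forward primer for NR_038002, ggactgatggacttggggtg, matched the plus strand of the second window at 25 to 44 after the start. Whether the array probe also detects the RefSeq transcript of the first start could not be checked, and no probe of Tnp1 could be identified.

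**Figure D1:**
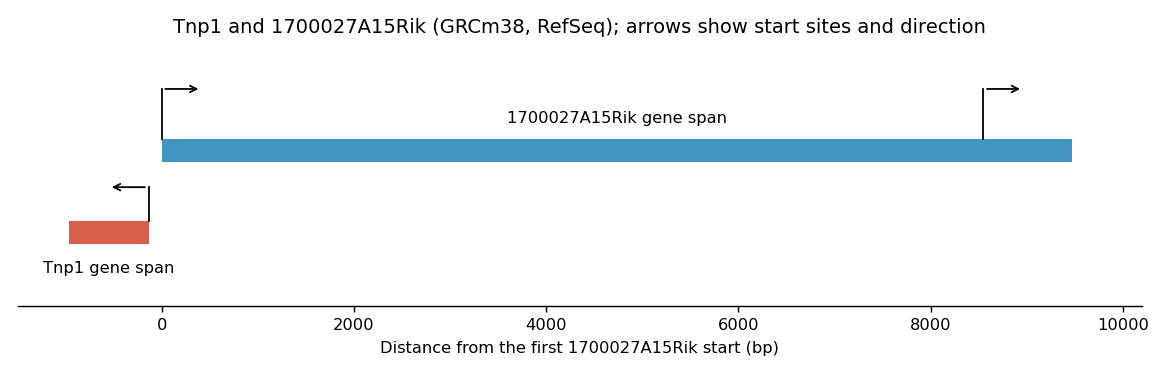
Gene spans of Tnp1 and 1700027A15Rik on GRCm38, plotted as distance in bp from the first 1700027A15Rik start. Arrows mark start sites and the direction of transcription. The Tnp1 start sits at -137 bp and the start of NR_038002 at 8550 bp, close to the right end of the lncRNA gene.

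1700017J07Rik spans chr2:168978269-168978906 on the plus strand. It lies 1798 bp from the lncRNA Gm33622, 20020 bp from Gm39993 and 22681 bp from Zfp64, the nearest protein-coding gene. Its window is shown because it holds CCATGGTAAC, in capitals, a match to CCATGG followed by any base and AAC. These are letters of the kind found in the X-box, the site of RFX factors, and 1.18% of all windows hold them.
1700017J07Rik start, chr2:168978019-168978318, plus strand: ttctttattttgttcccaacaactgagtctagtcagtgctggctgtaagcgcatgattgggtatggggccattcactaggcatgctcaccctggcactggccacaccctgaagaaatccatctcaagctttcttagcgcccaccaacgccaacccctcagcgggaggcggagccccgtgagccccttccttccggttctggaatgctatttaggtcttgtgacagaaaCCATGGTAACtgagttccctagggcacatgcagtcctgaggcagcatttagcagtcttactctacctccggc
The match lies at -22 to -13 from the start. A motif match is a description of the letters, and no binding was measured.

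1700031M16Rik spans chr15:98398445-98416135 between Olfr283, 19247 bp away, and Olfr282, 21334 bp away, with the pseudogene Gm21022 at 3815 bp. RefSeq lists 1 transcript for it, NR_015496, whereas the array carried probes assigned to 3. The study's RT-PCR primers for uc007xmk.2 and NR_015496 are shown because they bear on whether the RT-PCR assays are separate measurements. Capitals mark the bases that the primers of the same direction share.
uc007xmk.2 forward: ATCTCTCTACACAcatccccaa
NR_015496 forward: gcctccagATCTCTCTACACA
uc007xmk.2 reverse: gGATGTGCCTGGCTCTCAA
NR_015496 reverse: GATGTGCCTGGCTCTCAAgt
The forward primers share 13 bases and the reverse primers 18, so both assays prime at overlapping sites. The sequences of the array probes were not at hand, so the primers do not show whether the probes are separate measurements.

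Kcnmb4os1 lies at chr10:116418121-116421235, inside the span of Kcnmb4 (chr10:116417861-116473859), which is read from the minus strand. A further lncRNA of the locus, Kcnmb4os2, lies 51927 bp away and overlaps the other end of Kcnmb4. No probe of Kcnmb4 or of any other neighbor named above could be identified, so none of them was measured beside the lncRNAs.

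The signal of each probe was read as Agilent's processed signal, an intensity after background subtraction and detrending. A level is log2 of that signal minus the array's 75th percentile over all probes. The 75th percentile lay between 305 and 384 intensity units on the testis arrays and between 30.7 and 154 on the others, and 34999 to 37393 probes were well above background in testis against 18257 to 33692 elsewhere. Negative controls were high on liver replicate 1, where their 95th percentile reached 13.6, against 2.97 to 4.97 on the remaining arrays. Detection in a group required the well-above-background flag on each of its 3 arrays, and markers from fixed lists were read where a probe could be identified. The 3 germ cell markers identified (Acr, Piwil2 and Stra8, of 15 listed) and 1 marker each of Leydig and Sertoli cells (Star and Gata1) were detected in testis. They were not confined to it. In F9, all 3 germ cell markers and Gata1 were detected, in GC-1 and GC-2 Acr and Star were, and Piwil2 and Stra8 were not. Zfp42, of the F9 list, was detected in F9 and also in testis. For brain, heart and liver the only probes found under a marker's symbol belonged to transcripts that the tables list as lncRNAs. Those of Gap43, Snap25 and Mobp were detected in brain and in no other tissue (that of Gap43 on 2 of 3 heart arrays), that of Nrap in heart and that of Apoa1 in liver, and the Gap43 transcript also in all 3 lines. The marker mRNAs of these tissues could not be checked, and no kidney marker was identified.

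For 5 of 5 probes, the 3 testis arrays lay above all 21 other arrays, as they did for 10.5% of all probes on the array. Of the same probes, 4 of 5 were well above background on the testis arrays and on no other array, against 5.58% of all probes. Among testis and the other tissues both patterns were fixed by the choice of the probes, and the cell line readings are compared with the same testis arrays, so nothing is read from these counts. For orientation, limma at 5-fold and an adjusted p of 0.05 called 12.3%, 11.5%, 11.5% and 10.3% of all probes higher in testis than in brain, heart, kidney and liver, and 11.2%, 11.9% and 12.4% higher than in F9, GC-1 and GC-2. The probe also above background elsewhere was 1700017J07Rik, on 1 F9 array.

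The 1700027A15Rik probe gave processed signals of 100825, 115633 and 125146 on testis replicates 1, 2 and 3. On the 21 other arrays it ranged from 2.72 (heart replicate 1) to 6.02 (liver replicate 1) and was never well above background. Only 0.518%, 0.266% and 0.275% of all probes were brighter on the respective testis arrays, which describes the brightness of the probe and does not rank transcripts. The mean testis level was 8.38 ± 0.30 (SD, n = 3). With the dim arrays held at the lowest signal well above background, the testis level was at least 812-fold that of liver, at least 2158-fold that of heart, at least 2170-fold that of kidney and at least 3716-fold that of brain. The corresponding lower bounds were 1772-fold over F9, 2424-fold over GC-1 and 2638-fold over GC-2. For every probe described here the lowest bound was against liver, the group with the lowest 75th percentiles and with the array of high negative controls.

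The Kcnmb4os1 probe gave 68511, 54095 and 65963 on testis replicates 1, 2 and 3, a mean level of 7.52 ± 0.07 (SD, n = 3). The highest of the other 21 signals was 6.43, on brain replicate 2. The testis level was at least 448-fold that of liver, 1190-fold that of heart, 1196-fold that of kidney and 2048-fold that of brain. The bounds over the lines were 977-fold for F9, 1336-fold for GC-1 and 1454-fold for GC-2. Between 0.732% and 0.804% of all probes were brighter on the testis arrays.

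The uc007xmk.2 probe of 1700031M16Rik gave 25201, 19482 and 21847 on testis replicates 1, 2 and 3 and 2.28 to 5.87 elsewhere. The NR_015496 probe gave 19638, 16382 and 18169 in testis and 2.67 to 12.2 elsewhere, the highest on liver replicate 1. The uc007xml.1 probe gave 19314, 17538 and 18845 in testis and 2.69 to 7.56 elsewhere. The testis signals of all 3 probes were therefore far from those of the other groups, with no overlap. Mean testis levels were 6.01 ± 0.02, 5.72 ± 0.04 and 5.76 ± 0.10 (SD, n = 3), respectively. The bounds ran from at least 158-fold (liver) to 722-fold (brain) for uc007xmk.2, from 129-fold to 590-fold for NR_015496 and from 133-fold to 608-fold for uc007xml.1.

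The 1700031M16Rik probes could be compared only through their own differences between arrays, since the brightness of different probes cannot be set against each other. The difference between the uc007xmk.2 and NR_015496 levels varied over the testis arrays with an SD of 0.06 on the log2 scale, and no array departed by more than 0.07 from the mean difference. For uc007xmk.2 and uc007xml.1 the SD was 0.12 and the largest departure 0.13, and for NR_015496 and uc007xml.1 they were 0.06 and 0.07. The SDs of the probes themselves were 0.02, 0.04 and 0.10, and the median over bright probes was 0.12, so at this scaling all 3 varied little. At the same scaling uc007xmk.2 lay above its mean on replicate 1 (by 0.02) and the other probes below theirs (at -0.05 and -0.11). With the percentile over probes detected on all arrays, the SDs were larger, at 0.03, 0.09 and 0.15. Deviations this small cannot show whether the 3 probes varied together. On the other 21 arrays none of the 3 was well above background, so their agreement there is an agreement in not being detected. With 3 measured arrays of 1 group, agreement could be read only as a small variation in testis, whose size depended on the scaling.

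The 1700017J07Rik probe gave 19508, 13316 and 13919 on testis replicates 1, 2 and 3, a mean level of 5.49 ± 0.16 (SD, n = 3). Its signals were 2.97 to 8.25 on the 12 arrays of brain, heart, kidney and liver, and their medians were 3.54 over the GC-1 arrays and 3.60 over the GC-2 arrays. On F9 replicates 1, 2 and 3 it gave 76.5, 3.68 and 8.78, and only the first was well above background. Testis was at least 110-fold above liver, 292-fold above heart, 294-fold above kidney and 503-fold above brain. Over the lines the bounds were 135-fold for F9, where 1 of 3 arrays measured it, 328-fold for GC-1 and 357-fold for GC-2. Normexp background correction added an offset of 50 to every signal, which by construction narrows ratios to dim arrays. With this correction the lowest bound, which was 812-fold for 1700027A15Rik and 448-fold for Kcnmb4os1, fell to 409-fold and 265-fold. Those of uc007xmk.2, NR_015496, uc007xml.1 and 1700017J07Rik fell to 95.8-fold, 62.4-fold, 66.9-fold and 48.6-fold, whereas the percentile over detected probes and quantile normalization raised all of them.

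**Figure D2:**
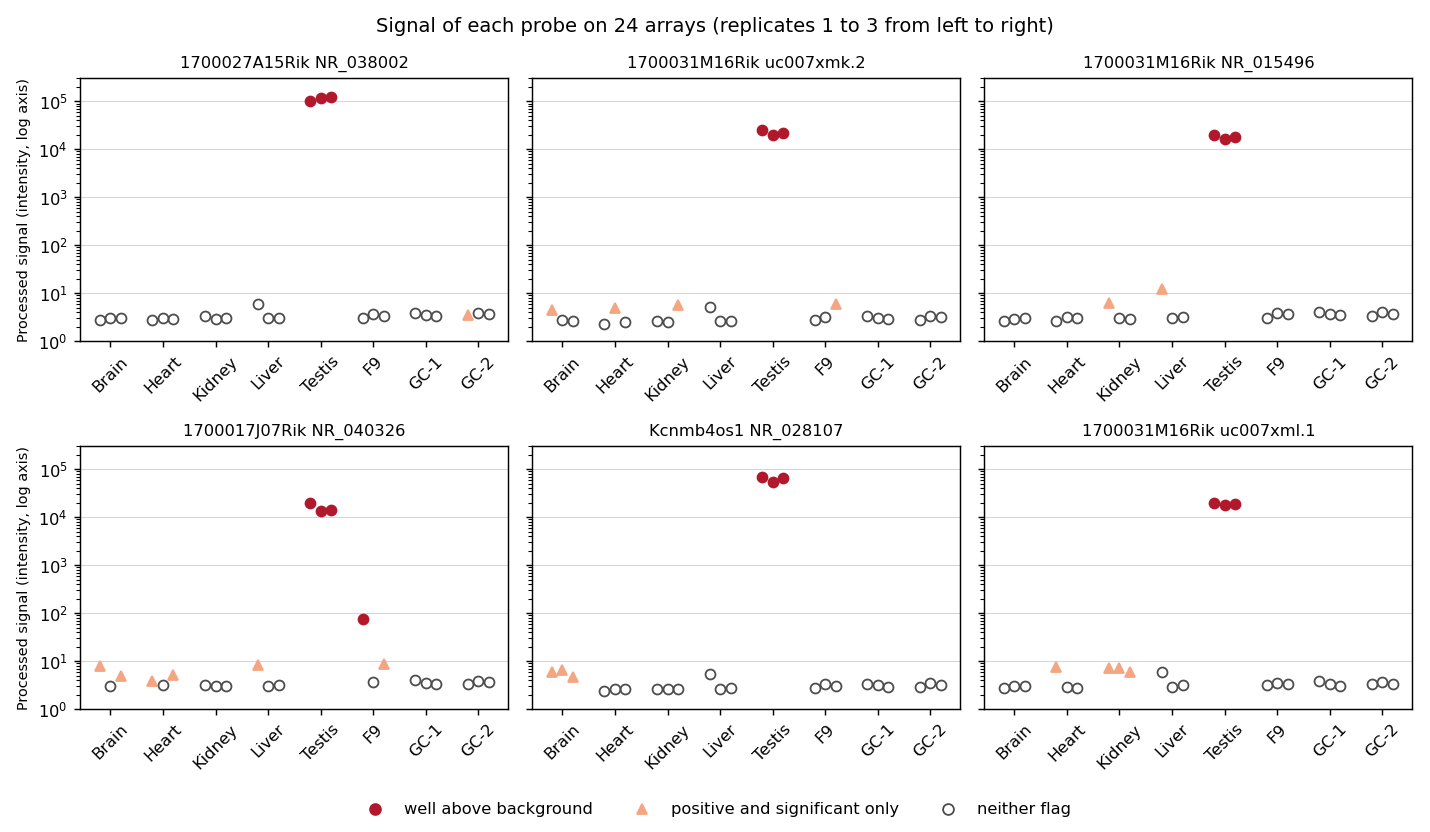
Processed signal (intensity, log axis) of the 5 probes and of the uc007xml.1 probe of 1700031M16Rik on each of 24 arrays, by tissue or cell line, with replicates 1 to 3 from left to right. Filled circles are well above background, triangles carry only the weaker flag for a positive and significant signal, and open circles carry neither. The testis arrays stand apart for every probe, and F9 replicate 1 at 76.5 is the single filled point outside testis.

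A weaker flag of the scanner software marks a signal that is positive and differs from background, without being well above it. It was set in 17 of 105 readings of the 5 probes outside testis (16.2%), against 2.92% to 7.47% of the negative control spots on those arrays. Of all 60804 probes, 18257 to 33692 were well above background on those arrays, already a larger share than 16.2%. The share of all probes with the weaker flag was not counted, so nothing is read from the number of flagged readings. The 17 readings were spread as 7 for 1700017J07Rik, 4 for uc007xmk.2, 3 for Kcnmb4os1, 2 for NR_015496 and 1 for 1700027A15Rik. The following patterns were singled out after the values were seen. For Kcnmb4os1 the 3 readings were the 3 brain arrays, at 5.82, 6.43 and 4.71 with software errors of 2.35, 2.81 and 2.66, and no heart, kidney, liver or cell line array carried the flag. Among the 33639 probes detected in testis, as the choice of this probe required, 43 shared that pattern (0.0707% of all 60804). Since the pattern was picked after its values were seen, this share does not show how unusual the brain readings are. For uc007xml.1 the flag was set on all 3 kidney arrays (7.03, 7.25 and 5.95) and on heart replicate 1, whereas uc007xmk.2 and NR_015496 each carried it on 1 kidney array. These signals lie below the detection rule used for the bounds, and values without the flag carry no order.

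The spread among testis arrays differed between the probes. For uc007xmk.2, NR_015496, Kcnmb4os1 and uc007xml.1 the SD of the level was 0.02, 0.04, 0.07 and 0.10, against a median of 0.20 over the 33639 probes detected in testis and of 0.12 over the 2235 probes with at least 10000 intensity units on each testis array. The SD of 1700017J07Rik was 0.16. That of 1700027A15Rik was 0.30, and 70.4% of the detected probes had an SD no larger than this. Its level on testis replicate 1 lay 0.34 below its mean, since its raw signal was lowest on the array where the raw signals of the other probes were highest. Testis replicate 1 was hybridized on a different slide from replicates 2 and 3. The level of 1700027A15Rik on replicate 1 minus the mean of the other two was -0.51. Among the 195 probes with at least 100000 intensity units on each testis array, a group formed after its values were seen, the median of this difference was -0.06 (quartiles -0.16 and 0.07), and 1 probe, 1700027A15Rik itself, was as low. This limit lies just under the lowest signal of the probe. Among probes with lowest testis signals of 50000 to 100000, 10000 to 50000 and 1000 to 10000, 10 of 317, 68 of 1723 and 453 of 6737 were as low, and 24.1% of all detected probes had a larger difference in either direction. No probe on the testis arrays was marked saturated. The part of the slide in this difference was not tested.

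**Figure D3:**
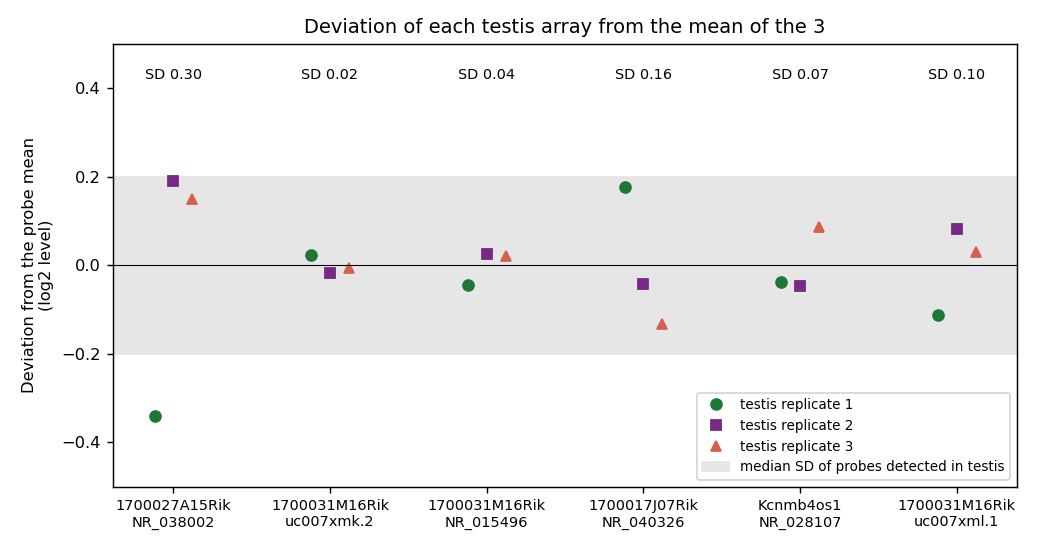
Deviation of each testis array from the mean of the 3, in log2 level, for each probe. The gray band is the median SD of all probes detected in testis (0.20) on either side of 0, and the SD of each probe is printed above its points. Replicate 1 of 1700027A15Rik, at -0.34, and no other point lies outside the band.

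The stated ground for choosing the probes was testis against the other tissues, though earlier results of these data were known. Differences among the 3 cell lines were tested with limma, with Benjamini-Hochberg adjustment over all 60804 probes. A call required 5-fold and an adjusted p of 0.05. In F9, GC-1 and GC-2, 1700027A15Rik, Kcnmb4os1 and both 1700031M16Rik transcripts were not well above background on any array, so no fold was given between the lines. 1 of 5 probes, 1700017J07Rik, was called higher in F9 than in GC-1, where 3.44% of all probes were, and 1 of 5 higher in F9 than in GC-2, where 3.77% were. All GC-1 and GC-2 arrays gave only background, and F9 replicates 2 and 3 were not well above it, though replicate 3 (8.78) carried the weaker flag. No size is therefore given for the line, and bounds are given below for F9 replicate 1 alone. The adjusted p from limma was 0.0228 against GC-1 and 0.0176 against GC-2. The fitted differences behind these p-values were 2.40 ± 0.69 and 2.53 ± 0.69 (log2, SE). They rest on line readings not well above background in all but 1 array and do not measure the size. None of the 5 probes was called between GC-1 and GC-2, where 3.32% of all probes were called in either direction by limma.

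Both calls rested on F9 replicate 1. Without it no F9 array was well above background, and the fitted differences of 1.35 and 1.48 were below the 5-fold limit. Their adjusted p-values from limma, 0.0190 and 0.0120, still passed 0.05. The call against GC-1 was also lost without any single GC-1 array or with another percentile, that against GC-2 without GC-2 replicate 1, and both with quantile normalization, normexp or the methods' t-test. On the slide of the first replicates, F9 replicate 1 was at least 5.83-fold above the GC-1 array and at least 7.64-fold above the GC-2 array. On the slide of the other replicates no array of these lines was well above background for this probe, so no difference was given. Of all probes, 27537 were well above background on F9 replicate 1, against 23978 and 23525 on replicates 2 and 3. F9 replicate 1 also stood above the other F9 arrays for other testis transcripts. Of 4420 probes detected on all testis arrays and on no brain, heart, kidney or liver array, 503 (11.4%) were well above background on F9 replicate 1, against 350 and 345 on replicates 2 and 3, and 161 of them on replicate 1 alone of the F9 arrays. Of those 161, 6 were at least as bright as 1700017J07Rik, itself included. Over all probes, 29 (0.0477%), 1700017J07Rik included, were higher on F9 replicate 1 than the mean of the other two by at least its own difference of 3.14 on the log2 scale. The first arrays of GC-1 and GC-2, on the same slide, likewise had the most of the 4420 probes above background in their line, 383 against 357 and 354, and 422 against 301 and 333. They also had the most of all probes well above background, 27578 against 27101 and 26876, and 28655 against 26120 and 27052. The part of the slide in the 1700017J07Rik signal was not tested.

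The probes were also set beside the other 21 lncRNAs for which the study designed RT-PCR primers, all chosen by the study for high testis signals on these arrays. All 21 were detected on the 3 testis arrays. Of these, 9 were well above background on no other array, 10 were above it on some array of another tissue and 6 on some cell line array. In each of the 3 lines, 2 of the 21 were detected on all arrays, against 0 of the 5 probes described here. Of a list of 25 spermatid genes, 5 had an identified probe (Acr, Adam3, Adam5, Adam18 and Cylc2). The supplementary tables that name them list transcripts selected as testis-specific, among others, so their direction is no independent evidence. Acr encodes acrosin, a protease of the acrosome, and was the only one of the 5 detected in a cell line, on all arrays of F9, GC-1 and GC-2. The probes of Adam3, Adam5, Adam18 and Cylc2 were assigned to transcripts that the tables list as lncRNAs.

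As a description of likeness, Pearson's r of the level over the 24 arrays was computed between each probe and 3450 identified probes of other genes. For 1700027A15Rik the highest were 1700029H14Rik (0.9995), 1700101O22Rik (0.999) and AK005964 (0.999). For uc007xmk.2 they were AK076783, Gm15756 and AK007116 (0.997, 0.997 and 0.996), and for NR_015496 they were AK006507, AK018896 and AK015610 (0.998, 0.997 and 0.997). For Kcnmb4os1 they were AK007116, 4933432K03Rik and AK005751 (all 0.995). These 3 lncRNA genes had 202 to 222 probes with r of 0.95 or more, so the first 3 stand little apart from the rest. For 1700017J07Rik the highest were 4932702P03Rik, AK019797 and Gm16541 (0.989, 0.986 and 0.981), and 89 probes reached 0.95. The arrays fall into testis and all others, the latter at background for most of these probes, so that r mainly records the contrast that chose the lncRNAs.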

How the data were processed

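Expression was measured on 24 arrays, 3 for each of 5 tissues and 3 cell lines. Per the file headers, the deposited scanner files came from Agilent's Feature Extraction (version 11.5.1.1) and hold spot intensity values, not normalized between arrays, beside a matrix that repeats the processed intensity (largest relative difference 0.000228). The methods name GeneSpring for normalization, which was not repeated. Probes were named from the study's supplementary tables (3456 probes, 5.68%), genes and promoter windows from RefSeq (GRCm38.p6). Promoter windows of 1700031M16Rik and Kcnmb4os1 were not analysed here.

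The processed signal was put on the log2 scale and each array's 75th percentile subtracted. limma 3.58.1 in R 4.3.3 was fitted to the 15 tissue arrays and to the 12 arrays of testis and the lines, with 1 coefficient per group, and called probes at an adjusted p of 0.05 and 5-fold. Lower bounds put a dim array at the higher of its own signal and its lowest signal well above background. In simulations with 200 changed probes of 60804 by 3.5 (log2), 89% were recovered for F9 against GC-1, with 0 false calls. The series' design text calls the 3 arrays of a group biological replicates, and their number limits the precision. Alternatives were other scalings, background correction, blocks, filters, flags, tests and leaving out arrays. The text names the members, their neighbors, the uc007xml.1 probe and the 3 most alike probes. The members and lists were chosen with earlier results of these data known. Tables and figures were made in Python 3.11.15 (pandas 2.3.3, numpy 2.4.6, matplotlib 3.10.9, scipy 1.17.1).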

Additional observations from a re-analysis of the deposited data

How the results depend on the processing

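The number of the 5 probes detected on the testis arrays alone was 4 to 5 when single arrays were left out, 5 without F9 replicate 1, and 0 with the weaker flag for a positive and significant signal, which each probe carried on some other array. The F9 against GC-1 difference of 1700017J07Rik (2.40) fell short of the call with the 75th percentile over probes detected on all arrays (2.28), with quantile normalization (2.21, with limma's adjusted p at 0.0902) and with normexp background correction (0.78), and did not pass the methods' t-test before or after Benjamini-Hochberg adjustment. With single arrays left out it ranged from 1.35 to 3.27 and also lost the call without any 1 of the GC-1 arrays, though its size hardly moved (2.35 to 2.42). The F9 against GC-2 difference (2.53) fell short with quantile normalization (2.20, with limma's adjusted p at 0.0959) and normexp (0.85), did not pass the methods' t-test either way, and ranged from 1.48 to 3.40 with single arrays left out, losing the call without F9 replicate 1 and without GC-2 replicate 1 (2.34). With normexp both differences missed only the 5-fold limit, at limma's adjusted p of 0.0044 (GC-1) and 0.0023 (GC-2). With the replicate number as a block the F9 against GC-2 difference was unchanged at 2.53 (limma's adjusted p 0.0257), as was the F9 against GC-1 difference at 2.40 (0.0333). All arrays numbered 1 shared a slide, and their deviations correlated with medians of 0.15 (tissues) and 0.17 (testis and lines), against 0.02 to 0.11 for the other numbers. Some pairs lay under 0.1 in each, so the numbers were not taken to pair the samples.

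The count of all probes higher in testis fell with normexp to 3982 against brain, 3645 against heart, 3518 against kidney, 3563 against liver, 3493 against F9, 3689 against GC-1 and 3796 against GC-2. It rose with the percentile over detected probes to 10647 against kidney, 10113 against liver, 11648 against F9, 11614 against GC-1 and 12230 against GC-2. Between the lines, normexp gave 1252 (F9 and GC-1), 1274 (F9 and GC-2) and 544 (GC-1 and GC-2) called probes, and the methods' t-test after Benjamini-Hochberg adjustment 1237 for GC-1 and GC-2. Scaling by detected probes moved the median difference of testis over the other groups up by 0.69 to 1.59 (log2), and the lowest bound of each lncRNA kept testis above every group under every scaling, from 48.6-fold (1700017J07Rik, normexp) upward. The part of each step in these shifts was not tested. Normexp used the median signal, since the files used here hold no mean signal. Its offset of 50, added to every signal, narrows ratios to dim signals by construction. The neighbor comparison was not run, as no neighbor had an identified probe.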
